A study of Mus musculus with 21 samples.

Results

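Keratins are the intermediate filament proteins of epithelial cells, and the level of 10 of them was followed in Myc-CaP cells and in the tumours they form: Krt4, Krt5, Krt6a, Krt7, Krt8, Krt14, Krt15, Krt17, Krt18 and Krt19. They were taken by gene name from a table of 45706 genes as keratins of luminal, basal and stratified epithelium. They were also chosen by measured values, since the differences of Krt8 and Krt6a among the KO lines in culture were known. Myc-CaP cells come from a mouse prostate cancer that carries a Myc transgene. IRE1α KO lines had been made from it by CRISPR with 1 guide against Ern1, the gene of the endoplasmic reticulum stress sensor IRE1α. All groups carried the Myc transgene, and the tumours were raised in FVB mice. The 13 tumour libraries were 3 each of KO1, KO2 and KO3 and 4 of WT, and the 8 cell libraries were 2 each of KO1, KO2, KO3 and WT. WT was 1 line, and the sources used here do not say whether a KO line was a single clone or whether the replicate cell libraries were separate cultures. A p-value here speaks of the spread among these libraries, which may be technical.

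Keratin filaments are built from obligate pairs of a type I and a type II chain, and the pair in use differs with the epithelium. In the prostate, luminal cells carry the type II chain Krt8 with the type I chain Krt18, often with Krt19, and basal cells carry Krt5 with Krt14 and Krt15. Krt7 belongs to simple and ductal epithelia, Krt4 to stratified mucosa such as the oesophagus, and Krt6a and Krt17 to skin appendages and epithelia under repair.

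The genes lie in the 2 keratin clusters of the mouse genome. Krt4 (chr15:101918535-101924735), Krt5 (chr15:101707070-101712898), Krt6a (chr15:101689910-101694307), Krt7 (chr15:101411043-101430313) and Krt8 (chr15:101996698-102004482) are type II genes on chromosome 15 in GRCm38. Krt18 (chr15:102028180-102032027) is a type I gene but is the neighbour of Krt8, with 23697 bases between their annotated ends. The type I genes Krt14 (chr11:100203162-100207548), Krt15 (chr11:100131758-100135928), Krt17 (chr11:100256217-100261029) and Krt19 (chr11:100140810-100148665) are on chromosome 11. The starts of Krt8, its neighbour Krt18 and Krt7 are shown because their levels parted: Krt8 and Krt7 were abundant in tumours and Krt18 was not. Each sequence is from RefSeq on GRCm38.p6 and runs from 250 bases before to 50 bases after the start annotated there. Capitals mark TATAAA, the TATA box, and GGGCGG, the Sp1 GC box, on either strand, so that CCGCCC is a GC box on the other strand.
Krt8, chr15:102004293-102004592, minus strand: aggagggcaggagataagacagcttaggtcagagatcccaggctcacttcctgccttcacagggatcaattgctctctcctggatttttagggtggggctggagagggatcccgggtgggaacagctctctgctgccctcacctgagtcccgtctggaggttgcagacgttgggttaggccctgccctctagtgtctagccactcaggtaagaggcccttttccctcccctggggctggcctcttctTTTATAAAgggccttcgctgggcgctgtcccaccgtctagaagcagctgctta
Krt18, chr15:102027966-102028265, plus strand: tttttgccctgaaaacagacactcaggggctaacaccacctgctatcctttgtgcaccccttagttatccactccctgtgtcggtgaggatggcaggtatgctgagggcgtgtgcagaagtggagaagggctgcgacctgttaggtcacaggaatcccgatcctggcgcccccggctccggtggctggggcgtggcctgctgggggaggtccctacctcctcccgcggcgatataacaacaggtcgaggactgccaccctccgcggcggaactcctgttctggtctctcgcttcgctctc
Krt7, chr15:101412153-101412452, plus strand: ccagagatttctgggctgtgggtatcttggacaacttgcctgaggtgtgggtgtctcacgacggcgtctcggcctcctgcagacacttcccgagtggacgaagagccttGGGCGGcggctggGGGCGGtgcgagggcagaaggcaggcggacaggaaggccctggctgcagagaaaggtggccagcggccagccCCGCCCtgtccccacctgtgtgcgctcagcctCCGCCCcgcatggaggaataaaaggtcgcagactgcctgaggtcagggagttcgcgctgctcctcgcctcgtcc

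The Krt8 window held TATAAA once on each strand, the matches overlapping at the annotated start, and no GGGCGG. Krt7 held 4 matches to GGGCGG, all ahead of its RefSeq start, and no TATAAA. The span of Krt7 given above is from GENCODE M21 and begins ahead of this whole window, so the annotations differ on its start. In Krt18 neither motif was found. Of 32851 promoter windows, 13.6% held TATAAA and 35.7% held GGGCGG. GC content was 58.0% in the Krt8 window, 61.3% in that of Krt18 and 66.3% in that of Krt7, against a median of 52.7% over all windows. The Krt8 window held 6 CpG dinucleotides, that of Krt18 held 17 and that of Krt7 held 21, against a median of 7.

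Total counts ran from 15994265 to 27497767 in tumours and from 18105510 to 25068239 in cells, and levels are given as CPM, the counts of a gene per total count, scaled by TMM over the 21 libraries. At these depths 3 counts, the limit that a count of 0 allows, correspond to 0.106 to 0.235 CPM in tumours and to 0.112 to 0.157 CPM in cells, for counting error only. Ern1 RNA averaged 62.7 to 85.5 CPM in tumours of the KO lines, against 73.6 CPM in WT tumours, and 177 to 196 CPM in KO cells, against 125 CPM in WT cells. A guide cut need not lower the RNA, so this count does not check the KO labels. WT tumour replicate 4 stood apart, with 24.0% of its counts on Yam1, a gene at a ribosomal RNA locus, against 6.16% to 8.47% in the other tumours. WT tumour replicate 1 had the most skeletal muscle RNA, and the 12 muscle markers summed to 13 to 5480 CPM over WT tumours.

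Of the keratins of prostate luminal and basal cells, Krt18, Krt5, Krt14 and Krt17 were close to absent in these counts, unlike Krt8. Krt18, the partner of Krt8, had 0 counts in each KO1 tumour, 1 count in each KO2 tumour, 0, 0 and 1 in KO3 tumours, and 4, 0, 0 and 1 in WT tumours. In cells Krt18 had 16 and 16 counts in KO3, 4 and 2 in KO1, 5 and 6 in KO2, and 4 and 3 in WT. Krt5, the basal type II chain, had 0 counts in all 13 tumours and in the cells of KO1, KO3 and WT, and 1 and 2 counts in KO2 cells. Its partner Krt14 had at most 3 counts in any tumour and at most 7 in any cell library. Krt17 had at most 4 counts in a tumour and at most 6 in a cell library. Krt18 shares 90.45% identity over 1267 bases with the processed pseudogene Gm5200, not analysed here, and 86.5% over 1065 bases with Gm17847, which had 0 counts. Whether reads of Krt18 were lost to such copies was not tested, so its low count may understate its level. With these 4 genes at a few counts, neither the Krt8 and Krt18 pair nor the Krt5 and Krt14 pair was measurable, and the names luminal and basal apply here to the genes and not to the cells.

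Other markers of prostate luminal cells were mixed. Hoxb13, a prostate homeobox factor, averaged 15.7 to 19.5 CPM in KO tumours, against 18.4 CPM in WT tumours. Epcam, an epithelial surface adhesion protein, had 0 counts in every cell library and 2 to 5 counts per tumour group. Cdh1, the epithelial cadherin, averaged 0.585 to 1.04 CPM in KO tumours and 0.545 CPM in WT tumours.

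The 6 keratins with measurable levels were Krt4, Krt6a, Krt7, Krt8, Krt15 and Krt19, and all 6 passed the filter on low counts among tumours alone and among cells alone. The type II chains moved in opposite directions between culture and tumour. Krt7 and Krt8 were higher in WT tumours than in WT cells, whereas Krt4, Krt6a, Krt15 and Krt19 were lower. Of the 10 genes, 2 were called higher, 4 lower, 1 (Krt18) did not pass and 3 were not tested, by edgeR's quasi-likelihood test with Benjamini-Hochberg adjustment. Over all 15173 genes tested 59.8% were called, 34.9% higher and 24.8% lower, against 6 of the 7 tested keratins, 4 of them lower. The 3 untested keratins had too few counts, so the tested ones do not stand for all 10. The median log2 fold change was -2.00 over the 7 tested keratins and 0.16 over all genes tested.

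Krt4, the mucosal type II chain, was at 1.46, 1.33, 1.25 and 1.33 CPM in WT tumours, against 923 and 878 CPM in WT cells. It was the most abundant keratin in cells per kb of transcript and close to gone in each tumour, with no overlap between the groups. The log2 fold change was -9.38 ± 0.30 (SE, adjusted p = 3.28e-13, edgeR), a level 666-fold lower in WT tumours.

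Krt7, the simple-epithelium type II chain, went the other way, at 351, 344, 532 and 293 CPM in WT tumours, against 55.3 and 50.6 CPM in WT cells. Every tumour lay above both cell libraries. The log2 fold change was 2.84 ± 0.24 (SE, adjusted p = 3.6e-08, edgeR), or 7.18-fold. Krt8, the luminal type II chain, was at 202, 121, 141 and 107 CPM in WT tumours, against 21.9 and 23.2 CPM in WT cells. Here too the groups did not overlap, and Krt8 rose by 2.66 ± 0.43 on the log2 scale (SE, adjusted p = 5.37e-05, edgeR), or 6.34-fold.

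Krt6a, the type II chain of skin appendages and repair, was at 52.4, 29.0, 26.1 and 22.4 CPM in WT tumours, against 132 and 130 CPM in WT cells. It was lower in all 4 tumours, by a log2 fold change of -2.00 ± 0.30 (SE, adjusted p = 2.35e-05, edgeR). Krt6b, 92.6% identical to Krt6a over 2184 aligned bases, had 25.8 estimated counts in all 21 libraries together, and reads shared by the copies may be split between them.

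The type I chains Krt15 and Krt19 had no tumour above a few CPM. Krt15, a basal chain, was at 2.62, 1.52, 1.85 and 2.19 CPM in WT tumours, against 39.4 and 31.1 CPM in WT cells (log2 fold change -4.11 ± 0.48 SE, adjusted p = 1.39e-06, edgeR). Krt19, a chain with a very short tail found in luminal and ductal cells, was at 2.62, 1.13, 1.55 and 0.627 CPM in WT tumours, against 35.4 and 30.0 CPM in WT cells (log2 fold change -4.43 ± 0.34 SE, adjusted p = 1.24e-08, edgeR). For both genes the groups lay far apart. The calls of the 6 genes held in all alternatives tried. Krt18, with 7 counts in all in WT cells, was not called (log2 fold change -1.27 ± 0.97 SE, adjusted p = 0.269, edgeR). It was called without WT tumour replicate 1, which held 4 of the 5 counts in WT tumours (log2 fold change -2.86, adjusted p = 0.029, edgeR). Krt18 passed the filter on low counts only through KO3 cells, and at so few counts neither outcome describes its change.

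**Figure D1:**
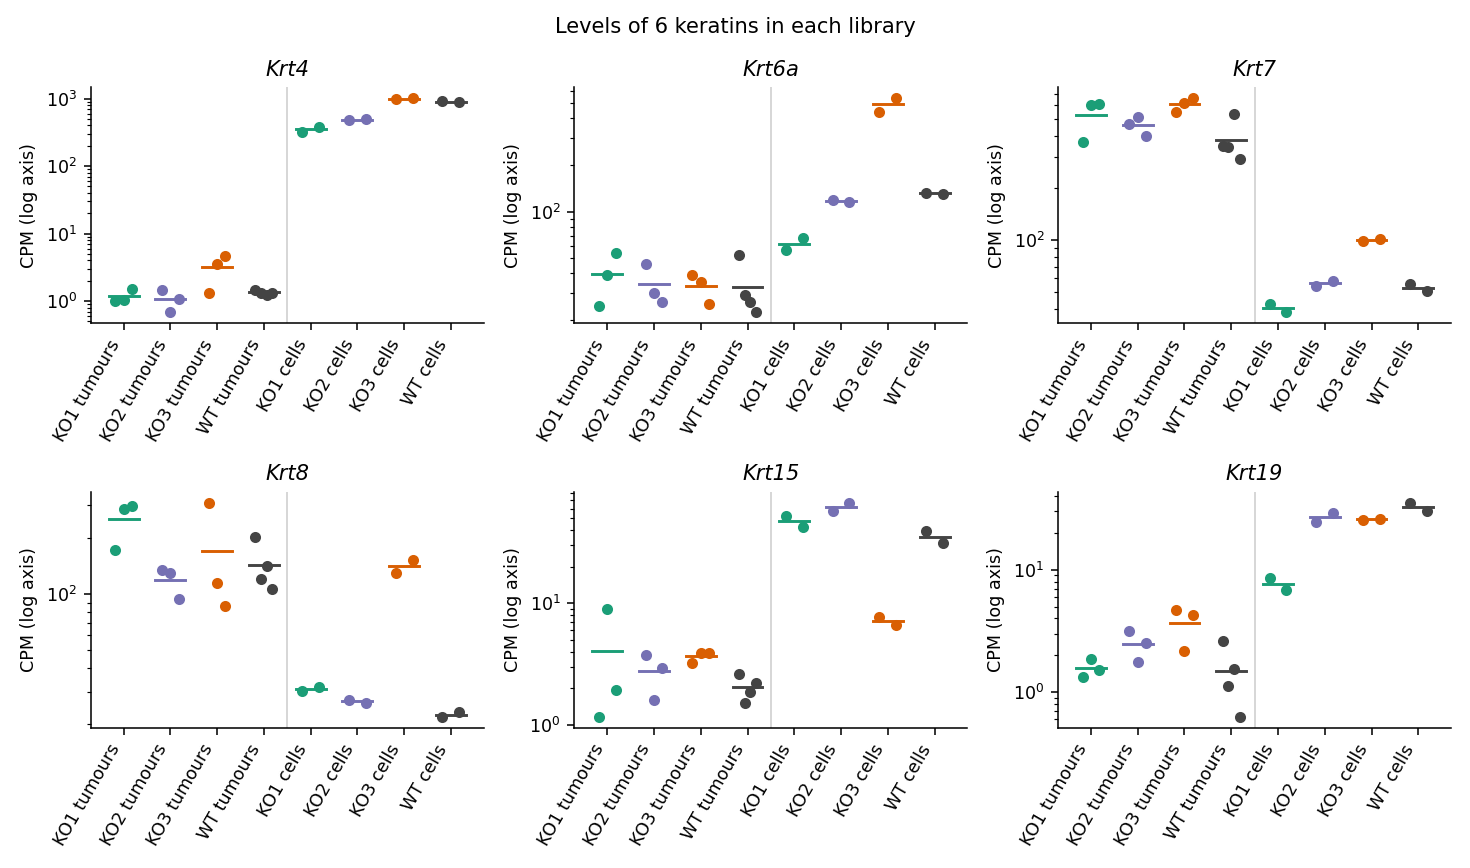
CPM on a log axis, 1 point per library and a line at each group mean, for the 6 measurable keratins, with tumours left of the grey line and cells right of it. Krt4 falls to a few CPM in every tumour, Krt7 is above every cell library in every tumour, and KO3 cells stand apart for Krt8, Krt6a and Krt15.

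Tumours hold host cells that cultures lack, and in bulk RNA fewer cells of a type and less RNA per cell cannot be told apart. The 12 leukocyte markers summed to 553 to 1120 CPM in KO tumours and 380 to 1080 CPM in WT tumours, against 2.10 to 4.36 CPM over all cell libraries. Hoxb13 fell by 0.91 on the log2 scale in WT tumours against WT cells (adjusted p = 0.000286, edgeR). Host epidermis was looked for by its own keratins. Krt1 and Lor, both of the outer epidermis, had 1 count each in all 13 tumours together, and Krt2 and Flg had 0. Krt10, another skin marker, was not near 0, with 188 counts in all tumours together, at most 30 in any tumour, and 154 in all cell libraries. Its group means were 0.405 to 0.959 CPM in tumours and 0.698 to 1.01 CPM in cells. The 15 skin markers summed to 4.92 to 15.9 CPM in KO tumours and 6.48 to 13 CPM in WT tumours, against 5.20 to 11.4 CPM over all cell libraries. Calml3, a calmodulin-like gene of that list, had 2453 counts in tumours and 1 in cells. The part of host cells in the keratin levels was not tested.

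Across lines the same contrast was described without a test, because the levels in KO cells were known when the genes were chosen. Krt7 was higher in all 13 tumours than in any of the 8 cell libraries, and Krt4, Krt6a and Krt19 were lower in all 13, where 23.0% and 15.9% of 15173 genes separated that way. Krt4 was lower in tumours than in cells by log2 ratios of mean CPM of -8.20 in KO1, -8.83 in KO2, -8.31 in KO3 and -9.39 in WT. Krt7 was 13.1-fold, 8.19-fold and 6.10-fold higher in tumours of KO1, KO2 and KO3, and 7.18-fold higher in WT.

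KO3 differed from the other lines for Krt8, Krt6a and Krt15. Krt8 was 8.17-fold higher in KO1 tumours than in KO1 cells and 4.49-fold higher in KO2, but 1.20-fold higher in KO3, whose cells were already at 130 and 153 CPM. That direction rests on KO3 tumour replicate 1, at 310 CPM, and the other two KO3 tumours, at 115 and 86.8 CPM, lay below both cell libraries. Without replicate 1 Krt8 was 1.40-fold lower in KO3 tumours, a log2 ratio of -0.49. Krt6a was 14.8-fold lower in KO3 tumours than in KO3 cells, 1.57-fold lower in KO1 and 3.43-fold lower in KO2. Krt15 was 1.94-fold lower in KO3 tumours, against log2 ratios of -3.55 in KO1 and -4.50 in KO2. The KO1 value was -4.93 without KO1 tumour replicate 2, at 9.03 CPM, and then lay below that of KO2. Krt19 had log2 ratios of -2.29 in KO1, -3.44 in KO2, -2.80 in KO3 and -4.46 in WT.

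**Figure D2:**
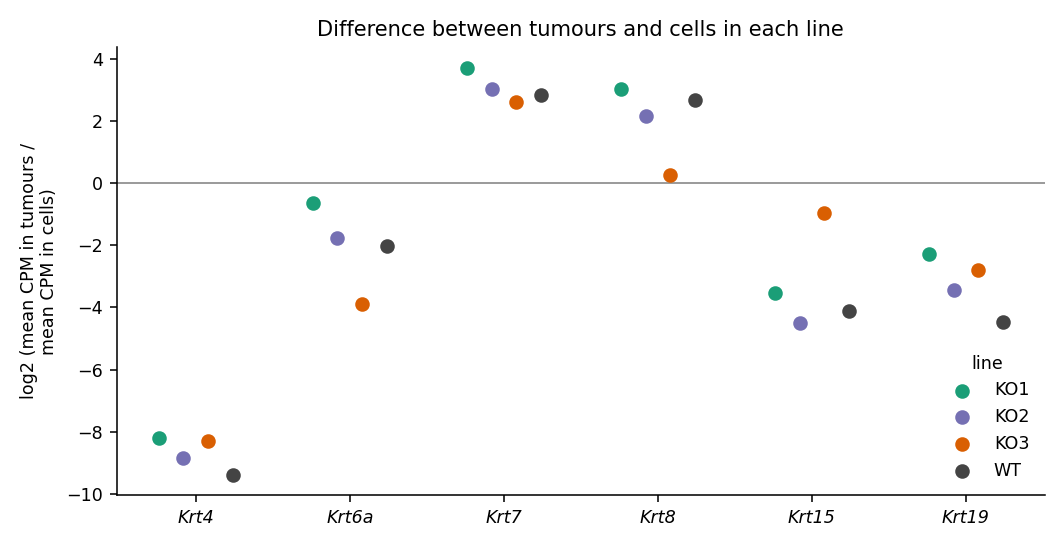
Log2 ratio of mean CPM in tumours to mean CPM in cells of the same line, 1 point per line, for the 6 measurable keratins, without error bars since no test was made. Krt4 lies between -9.39 and -8.20 in all lines, and for Krt8 KO3 is at 0.27 (-0.49 without KO3 tumour replicate 1) while the other lines are at 2.17 to 3.03.

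Within the type II chains, the shift from Krt4 to Krt7 and Krt8 was seen per length as well. Levels of genes are compared as CPM per kb of the annotated coding transcript, and shares are of the sum over the 22 type II genes of the table. Krt4 made up 0.146% to 0.921% of the type II level in KO tumours and 0.256% to 0.416% in WT tumours, against 56.0% to 68.3% in KO cells and 77.6% to 78.0% in WT cells. Krt7 made up 41.3% to 68.3% in KO tumours and 37.4% to 56.7% in WT tumours, against 2.88% to 4.58% in KO cells and 2.33% to 2.43% in WT cells. Krt8 made up 18.7% to 48.6% in KO tumours and 31.3% to 45.2% in WT tumours, against 3.80% to 9.14% in KO cells and 2.01% to 2.23% in WT cells. The order of Krt7 and Krt8 depended on the length used: in KO1 tumours both were at 129 CPM per kb of transcript, whereas per kb of coding sequence Krt7 was at 384 and Krt8 at 172 CPM.

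**Figure D3:**
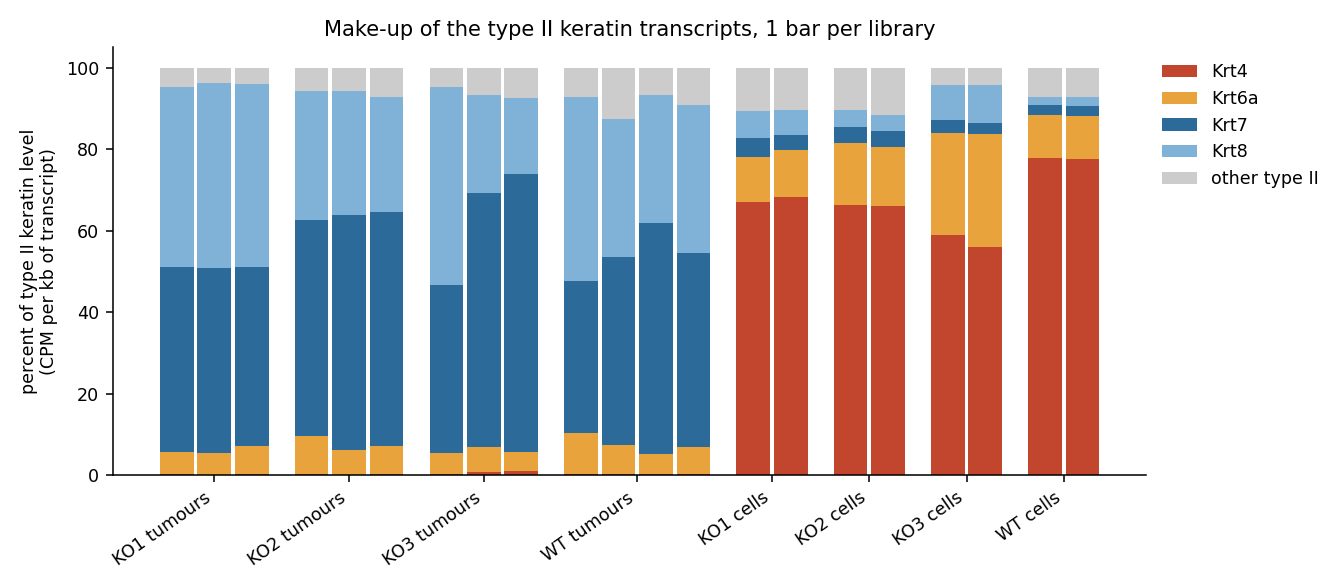
Percent of the summed type II keratin level, in CPM per kb of transcript, taken by Krt4, Krt6a, Krt7, Krt8 and the other type II genes, 1 bar per library. Krt4 holds 56.0% or more of every cell library and at most 0.921% of any tumour, where Krt7 and Krt8 fill most of the bar.

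As counted, type I chains were scarce in all libraries relative to type II chains. The type I sum includes Krt18, whose low count may understate its level. The type I sums may therefore be too low, and the ratios and type I shares below too high. The 27 type I genes summed to 2.02 to 8.08 CPM per kb in KO tumours and 2.45 to 5.38 in WT tumours, against 24.6 to 61.4 in KO cells and 42.7 to 51.5 in WT cells. The type II sum was 169 to 339 CPM per kb in KO tumours and 150 to 229 in WT tumours, against 227 to 855 in KO cells and 530 to 555 in WT cells. Type II exceeded type I 37.7-fold to 112-fold in KO tumours and 42.5-fold to 86.1-fold in WT tumours, against 5.68-fold to 34.8-fold in KO cells and 10.8-fold to 12.4-fold in WT cells. Krt15 and Krt19 were the main type I genes, at 33.6% to 65.7% and 14.6% to 52.7% of the type I level in KO tumours, and 28.6% to 51.9% and 16% to 37.0% in WT tumours.

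Among cells, KO3 differed from the other lines in most of the keratins. These differences were in view when the genes were chosen and are given as levels. Krt8 was at 130 and 153 CPM in KO3 cells, against 30.1 and 31.7 in KO1, 27.1 and 26.0 in KO2, and 21.9 and 23.2 in WT. Krt6a was at 441 and 540 CPM in KO3 cells, against 56.4 and 67.5 in KO1, 118 and 115 in KO2, and 132 and 130 in WT. For both genes KO3 cells were several times the level of any other cells, and WT lay beside or among the other KO lines.

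Krt4 was at 971 and 1020 CPM in KO3 cells, against 325 and 374 in KO1, 483 and 491 in KO2, and 923 and 878 in WT. KO1 and KO2 cells were thus the low ones for Krt4. Krt7 was at 99 and 101 CPM in KO3 cells, against 42.5 and 38.1 in KO1, 54.4 and 58.2 in KO2, and 55.3 and 50.6 in WT. Krt15 was the reverse, at 7.67 and 6.59 CPM in KO3 cells, against 51.9 and 42.5 in KO1, 57.5 and 67.2 in KO2, and 39.4 and 31.1 in WT. Krt19 set KO1 apart instead, at 8.58 and 6.85 CPM in KO1 cells, against 24.7 and 29.3 in KO2, 25.5 and 26.1 in KO3, and 35.4 and 30.0 in WT.

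Among cells 7 of the keratins passed the filter on low counts. In KO3 cells both libraries lay above all other cell libraries for 5 of them (Krt4, Krt6a, Krt7, Krt8 and Krt18) and below them for 1 (Krt15). Of 12254 genes, 11% lay above and 9.66% below in that way. Levels in KO cells were known when the keratins were chosen, so their counts are a description and not an excess over these shares. Krt18 passed the filter only through KO3 cells, at 16 counts in each library, so its place among the 5 was set by the filter. KO cells of all lines lay above WT cells for Krt8 and below them for Krt19, as did 16.1% and 19.3% of genes. Ordered by mean, Krt8 ran KO3, KO1, KO2, WT, with KO1, KO2 and WT at 30.1 to 31.7, 26.0 to 27.1 and 21.9 to 23.2 CPM. The share of all genes with libraries ordered by line in this way was not counted.

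No keratin was called between KO and WT tumours. In KO tumours against WT tumours edgeR's quasi-likelihood test called 0 of the 6 tested keratins, 1 had an unadjusted p under 0.05, and DESeq2 called 0; 3.65% of 14200 genes were called. Krt7 was at 370, 601 and 610 CPM in KO1, 469, 517 and 399 in KO2, and 551, 616 and 662 in KO3, against 351, 344, 532 and 293 in WT tumours. All 9 KO tumours lay above 3 of the 4 WT tumours, and WT replicate 3 lay among them. Its log2 fold change was 0.47 ± 0.17 (SE, adjusted p = 0.15, edgeR). No keratin separated the 9 KO tumours from the 4 WT tumours, against 1.90% of genes in each direction.

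Krt8 varied within lines as much as between them. It was at 172, 288 and 297 CPM in KO1 tumours, 134, 130 and 93.6 in KO2, and 310, 115 and 86.8 in KO3, against 202, 121, 141 and 107 in WT. KO1 tumours were mostly high, and 1 KO3 tumour was the highest of all while another was the lowest. The log2 fold change was 0.33 ± 0.34 in KO tumours against WT tumours (SE, adjusted p = 0.625, edgeR). Krt6a was at 24.8, 39.3 and 54.3 CPM in KO1, 45.7, 29.9 and 26.3 in KO2, and 38.8, 35.1 and 25.5 in KO3, against 52.4, 29.0, 26.1 and 22.4 in WT. Its groups overlapped throughout (log2 fold change 0.13 ± 0.23 SE, adjusted p = 0.793, edgeR).

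Krt15 and Krt19, the measurable type I chains, were low in all tumours. Krt15 was at 1.16, 9.03 and 1.94 CPM in KO1, 3.75, 1.6 and 2.92 in KO2, and 3.22, 3.87 and 3.91 in KO3, against 2.62, 1.52, 1.85 and 2.19 in WT (log2 fold change 0.75 ± 0.43 SE, adjusted p = 0.352, edgeR). Krt19 was at 1.34, 1.86 and 1.52 CPM in KO1, 3.19, 1.75 and 2.54 in KO2, and 4.69, 2.15 and 4.26 in KO3, against 2.62, 1.13, 1.55 and 0.627 in WT (log2 fold change 0.80 ± 0.40 SE, adjusted p = 0.288, edgeR). KO tumours overlapped WT tumours for both genes.

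By line, edgeR called 0 of the 6 in KO1 and KO2 tumours against WT tumours (0 at an unadjusted p under 0.05, 0 by DESeq2), where 8.69% of 14483 genes were called. In KO3 tumours against WT tumours it called 0 (3 at an unadjusted p under 0.05), where 1.24% of genes were called, and DESeq2 called 1. That 1 was Krt7, at a log2 fold change of 0.65 ± 0.21 (SE, adjusted p = 0.167 by edgeR and 0.0488 by DESeq2). Krt19 had 1.30 ± 0.41 in the same contrast (SE, adjusted p = 0.156, edgeR), and was called, just under the threshold, without WT tumour replicate 1 (1.67). Without WT tumour replicate 3, Krt7 was called in both contrasts, at 0.57 in KO1 and KO2 (adjusted p = 0.0496) and 0.87 in KO3 (adjusted p = 0.0495).

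The gap between KO3 and the other KO lines seen in cells was not called in tumours. In KO3 tumours against KO1 and KO2 tumours Krt8 differed by -0.03 ± 0.34 and Krt6a by -0.15 ± 0.28 on the log2 scale (SE, adjusted p = 0.991 and 0.894, edgeR). In cells KO3 exceeded KO1 and KO2 by 2.20 and 2.42 log2 units for Krt8 and by 2.99 and 2.08 for Krt6a; the difference between cells and tumours was not tested, because the cell levels were known when the genes were chosen. Of the 6 keratins edgeR called 0 (2 at an unadjusted p under 0.05), DESeq2 called 1, and 1.88% of 14483 genes were called. No keratin separated KO3 tumours from KO1 and KO2 tumours, against 4.59% of genes higher and 3.66% lower.

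Krt4 came nearest to the threshold in that contrast. It was at 1.30, 3.49 and 4.65 CPM in KO3 tumours, against 0.990, 1.05 and 1.52 in KO1, 1.45, 0.679 and 1.08 in KO2, and 1.46, 1.33, 1.25 and 1.33 in WT. In KO3 the other two tumours were high and replicate 1 was at the level of the rest. The log2 fold change was 1.46 ± 0.35 against KO1 and KO2 (SE, adjusted p = 0.0565, edgeR), and it was called by DESeq2 (adjusted p = 0.0118) and without KO3 replicate 1 (1.82, adjusted p = 0.0101). It was not called in the other alternatives, and was at 1.07 without KO3 replicate 3 (adjusted p = 0.398) and 1.37 without KO3 replicate 2 (adjusted p = 0.226). The highest KO3 tumour, at 4.65 CPM, compares with 971 CPM or more in KO3 cells.

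**Figure D4:**
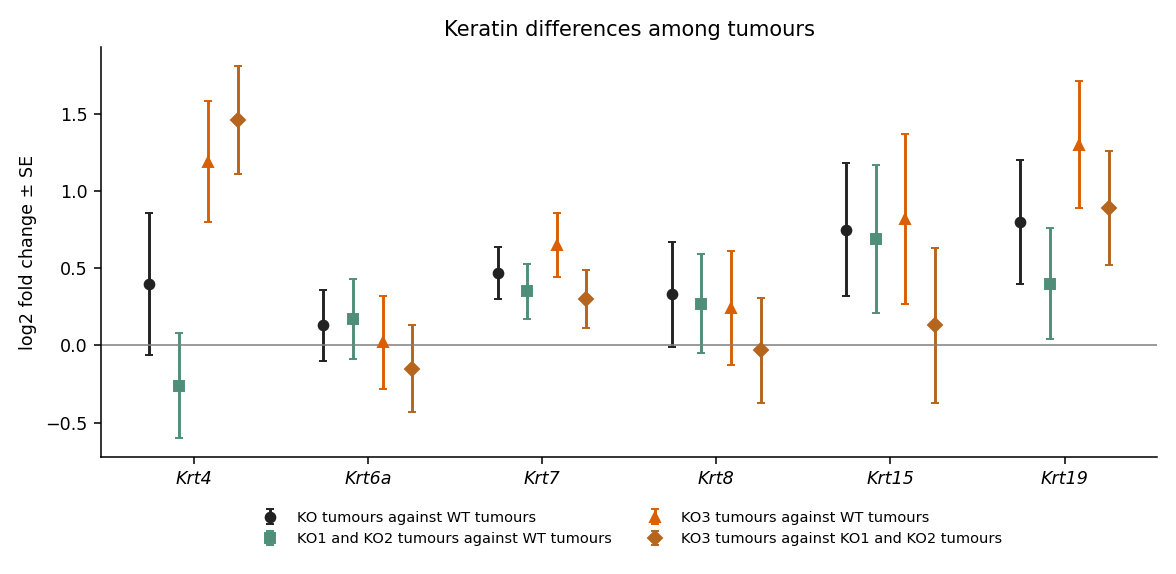
Log2 fold changes with standard errors from edgeR for the 6 measurable keratins in 4 comparisons among the 13 tumours. None passed the adjusted threshold of 0.05; Krt4 in KO3 against KO1 and KO2 tumours, at 1.46, came closest.

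Of the remaining 40 keratin genes 26 had a count and 5 averaged 1 CPM or more. In WT tumours against WT cells 9 were tested by edgeR, of which 7 were lower and 0 higher, against 24.8% and 34.9% of all genes. The median log2 fold change was -4.29, or -3.70 with Krt76, at 0 counts in tumours, set to the level of 3 counts per library. Among tumours alone, by line, 4 of the 40 were tested, so the others passed the filter on low counts through cell libraries. For those others a lower level in tumours was set by the filter, and the count of 7 does not describe keratins in general. Krt78, a type II chain of stratified epithelia, averaged 2.55 ± 0.742 CPM in WT tumours (SD, n = 4) and 55.4 ± 5.24 CPM in WT cells (SD, n = 2). It was lower by a log2 fold change of -4.47 (SE 0.23, adjusted p = 1.07e-10, edgeR). Krt79 was lower as well (log2 fold change -4.50, adjusted p = 1.23e-07, edgeR). Krt36 had a log2 fold change of -3.70, but it passed the filter through cell libraries, so its direction was set by the filter. Krt13 had 2 counts in WT tumours and 25 in WT cells, and Krt76 had 0 counts in all tumours and 66 in WT cells. Krt80 was the exception at a level above a few CPM in tumours, and did not pass (log2 fold change -0.26 ± 0.17 SE, adjusted p = 0.209, edgeR).

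Krt80 was also the keratin called among tumours. It averaged 30.6 ± 6.22 CPM in KO1 tumours and 35.5 ± 0.216 CPM in KO2 tumours, against 48.9 ± 12.5 CPM in WT tumours (SD, n = 3, 3 and 4), and fell by 0.59 on the log2 scale in KO1 and KO2 against WT (adjusted p = 0.0261, edgeR). The call was lost on leaving out WT replicate 2, KO1 replicate 1 or 2, or any of the 3 KO2 replicates.

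Genes that anchor keratins to junctions were called in both directions between culture and tumour, about as often as genes in general. Of 11 tested desmosome and plakin genes in WT tumours against WT cells, 4 were higher and 3 lower, where 59.8% of all genes were called (median log2 fold change 0.07, against 0.16 over all genes). Pkp2 and Pkp3, plakophilins that tie desmosomes to keratin, rose by 1.57 and 1.76 on the log2 scale, and Ppl, periplakin, fell by 1.56 (adjusted p = 3.71e-08, 2.9e-05 and 1.06e-09, edgeR). In KO tumours against WT tumours 1 of 10 was higher and 1 lower, where 3.65% of 14200 genes were called. These were Pkp3 by 0.93 and Pkp2 by -0.51 (adjusted p = 0.0239 and 0.0236, edgeR). Pkp3 lost its call without WT replicate 1, 2 or 4 and without line KO2 (adjusted p = 0.051 to 0.0934), and Pkp2 without WT replicate 2 or 3 and with WT tumours 3 and 4 summed (0.0519 to 0.0608). Both lost it with libraries summed per line, where no gene was called (adjusted p = 0.586 for Pkp3 and 0.716 for Pkp2).

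Regulators and partners of the luminal and basal programmes were also compared between WT tumours and WT cells, where 34.9% of all genes were higher and 24.8% lower. Of 12 tested luminal junction and regulator genes 7 were higher and 2 lower (median 1.02). Ehf, an epithelial ETS factor, averaged 109 ± 12.7 CPM in WT tumours (SD, n = 4) and 2.18 ± 0.0363 CPM in WT cells (SD, n = 2), higher by 5.65 on the log2 scale (adjusted p = 7.82e-12, edgeR). Of 12 basal epithelium genes 6 were higher and 3 lower (median 0.89). Trp63, the p63 factor of basal cells, was at 6.25 CPM in WT tumours and 0.248 CPM in WT cells (log2 fold change 4.62, adjusted p = 5.83e-08, edgeR). With 10 counts in WT cells, Trp63 passed the filter on low counts through tumours, so its direction was set by the filter. Egfr and Itga6, of the same list, were lower in WT tumours (log2 fold change -2.42 and -0.55, adjusted p = 2.75e-05 and 0.000359, edgeR). Krt5 and Krt14, basal keratins, stayed at a few counts or none. Of 8 other intermediate filament genes 5 were higher and 1 lower. Nes, nestin, which endothelial and stromal cells also make, rose by 7.42 on the log2 scale (adjusted p = 2.42e-10, edgeR), with 6 counts in WT cells. Like the splicing regulator Esrp1 of the luminal list, at 0 counts in WT cells, Nes passed the filter through tumours. The numbers of higher genes in these lists were thus in part set by the filter. Vim, the mesenchymal filament, averaged 156 CPM in WT tumours and 234 CPM in WT cells and did not pass (adjusted p = 0.0809, edgeR).

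The genes whose pattern was most like that of Krt8 were listed by the mean absolute difference of log2 CPM, centred within cells and within tumours, over the 21 libraries. Endod1 was nearest at 0.32, followed by Fbn1 at 0.40, Bmp1 at 0.40, Krt6a at 0.42 and Psmb8 at 0.43, against a median of 0.69 over 9978 genes. In KO3 cells Endod1 averaged 38.5 CPM, against 13.5 in KO1, 11.1 in KO2 and 9.51 in WT cells. Krt6a was the only keratin among the 5. The measure uses the cell libraries in which the Krt8 and Krt6a differences were known when the genes were chosen. The place of Krt6a in this list is therefore not a separate result.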

How the data were processed

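Polyadenylated RNA of 21 libraries was sequenced as paired reads of 50 bp from a stranded kit, per the labels. The authors deposited estimated counts per gene, in a plain table and a length-scaled one; per library, 7.96% to 10.2% of these were not whole numbers. The submitters' processing notes name Salmon 1.5.2, STAR, Trim Galore 0.6.7 and the build GRCm38, without settings or the use of strand. Antisense genes overlap exons of Krt6a by up to 394 and of Krt7 by up to 77 bases, so reads of either strand might not be told apart. Krt8 shares 98.6% identity over 941 bases with the pseudogene Krt8-ps, not analysed here, and its counts are uncertain to that extent.

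edgeR 4.0.16 (R 4.3.3) was run on the rounded plain estimated counts: filterByExpr, TMM, then its quasi-likelihood test, with p-values adjusted by Benjamini-Hochberg across every gene in the fit and called under 0.05. Tumours were fitted by genotype, and by the 4 lines; WT tumours against WT cells came from a fit of all 8 groups. The 10 keratins and 13 gene lists were chosen with earlier results of these data known. All 10 are named; of each other list, up to 3 passing genes of smallest p, and up to 5 other keratins, are named, with some left out, and defining markers (Epcam, Cdh1, Vim, Ern1, Krt1) besides; results of some listed genes are not reported here. Log2 CPM used a prior count of 2. No replicate pair agreed within sampling noise (lowest chi-square per degree of freedom 7.98). Same-numbered tumours deviated together in 3 of 18 pairs (correlation over 0.1; range -0.38 to 0.13), so numbers were not taken to pair samples. WT tumours 3 and 4 share a number in their descriptions and were also summed. Alternatives also covered DESeq2 1.42.0, the length-scaled table, RLE scaling, dropping the filter, a replicate block, other groupings of the lines and leaving out each library or line. Gene positions and lengths are from GENCODE M21 and near copies from blastn 2.17.0. On simulated data, of genes changed by 1 on the log2 scale 73% were recovered in KO against WT tumours (14200 genes), 70%, 74% and 67% in the line contrasts (14483 genes), and 60% in WT tumours against WT cells (15173 genes). Figures were drawn with matplotlib 3.10.9.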

Additional observations from a re-analysis of the deposited data

Results flagged for a closer look

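Krt15 in KO1 tumour replicate 2, at 9.03 CPM, lay far from the other 8 KO tumours, which were at 1.16 to 3.91 CPM; chance sets about 1 in 20 such groups apart. Without that library the Krt15 log2 fold change was 0.45 in KO tumours against WT tumours, 0.03 in KO1 and KO2 against WT, and 0.80 in KO3 against KO1 and KO2, none of them called by edgeR (adjusted p = 0.471, 0.967 and 0.332). In that library Krt14 and Krt17 had 1 count each and Krt5 had 0.

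Among cells, KO3 lay on the other side of WT from KO1 and KO2 for Krt4, Krt6a and Krt15, in each library. The share of all genes with this pattern was not counted, and the difference was not tested. The log2 ratio to WT cells was 0.15 in KO3 for Krt4, against -1.37 in KO1 and -0.89 in KO2. It was 1.91 in KO3 for Krt6a, against -1.08 and -0.17. For Krt15 it was -2.30 in KO3, where KO1 and KO2 cells lay above WT cells. Means over the KO lines therefore do not describe these genes in cells.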

How the results depend on the processing

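In WT tumours against WT cells the calls of Krt4, Krt6a, Krt7, Krt8, Krt15 and Krt19 kept direction and side of the threshold in all 13 alternatives, from leaving out a library to DESeq2; where 1 WT cell library was left it was assumed to vary like the others. Among tumours the number of genes called moved widely. For KO against WT, 518 genes were called, with 1088 by DESeq2, 332 with no filter, 246 with WT tumours 3 and 4 summed, 1118 with the lines as groups, 297 without KO1, 123 without KO2, and 154 to 594 on leaving out a library. With libraries summed per line edgeR called 0 (1134 at an unadjusted p under 0.05), in a fit where the 1 WT sum was assumed to vary like the KO lines. For KO1 and KO2 against WT, 1258 genes were called, with 1924 by DESeq2 and 712 to 1498 on leaving out a library (keratins 0 to 1). For KO3 against WT, 179 were called, with 659 by DESeq2 (keratins 1), 37 with WT and KO3 tumours only, and 31 to 232 on leaving out a library (keratins 0 to 1, among them Krt4 at 1.57, adjusted p = 0.0449, without KO3 replicate 1). For KO3 against KO1 and KO2, 273 were called, with 640 by DESeq2 (keratins 1), 480 with KO tumours only, and 71 to 269 on leaving out a library (keratins 0 to 1). The replicate block, fitted although numbers do not pair the samples, gave 98 genes for KO against WT and 93 for KO3 against WT, and ended or added no call of the 10 keratins. It ended the calls of Pkp3 and Pkp2 in KO against WT (adjusted p = 0.0659 and 0.0981). The cause of these moves was not tested.

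Uncalled keratins changed sign in some alternatives. Krt4 in KO against WT was at -0.27 without KO3. Krt6a in KO3 against WT was at -0.09 with the replicate block and -0.08 with WT tumours 3 and 4 summed. On leaving out a library, Krt6a ran from -0.01 to 0.41 in KO against WT, ran from -0.11 to 0.30 in KO3 against WT and from -0.29 to 0.01 in KO3 against KO1 and KO2; Krt8 ran from -0.52 to 0.57 in KO3 against WT and from -0.80 to 0.29 in KO3 against KO1 and KO2, and Krt15 from -0.10 to 0.80 there. In a check added once the data had been seen, the log2 ratio of mean Krt8 in KO3 tumours to KO3 cells ran from -0.49 to 0.59 on leaving out a library; no other of these 24 ratios changed sign. At a few counts per library, Krt5, Krt14, Krt17 and Krt18 allow no comparison among tumours.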

Other observations

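Krt76, a type II chain of the palate, had 0 counts in all 13 tumours. In cells it averaged 9.86 CPM in KO1, 4.36 in KO2, 1.66 in KO3 and 1.61 in WT. Krt79 averaged 0.173 to 0.582 CPM in the tumour groups, against 5.06 CPM in KO1, 9.92 in KO2, 6.95 in KO3 and 5.27 in WT cells.

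Esrp1, an epithelial splicing regulator, had 1 count in KO1 tumours, 2 in KO2 tumours and 0 in KO3 tumours, against 48 in the 4 WT tumours. It had 1 count each in KO2 and KO3 cells and 0 in KO1 and WT cells. The 48 counts in WT tumours ran from 0.117 to 1.18 CPM per library.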
